A study of Mus musculus with 4 samples.

Results

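The 10 genes described here encode pyruvate dehydrogenase and the enzymes that switch it off and on: the kinases Pdk1, Pdk2, Pdk3 and Pdk4, the phosphatases Pdp1 and Pdp2, and the subunits Pdha1, Pdhb, Dlat and Pdhx. They were chosen by name, as all probe sets that the platform annotation assigns to exactly 1 of these symbols. All 10 genes were found, on 17 probe sets, out of 10926 named genes in the table. The kinases had 6 probe sets, the phosphatases 3 and the subunits 8. No probe set named a member together with another gene. The samples were mouse brown adipocytes of wild-type genotype, fat cells that produce heat, profiled on expression arrays. The preadipocytes expressed either Blnc1 (brown fat lncRNA 1, a long noncoding RNA) or the vector alone, and were differentiated for 6 days. There were 2 arrays of Blnc1 cells and 2 of vector cells, called biological replicates in the labels. The promoter of the vector, and whether the replicates came from separate transductions or from clones, are not given in the sources used here, so p-values measure only the spread between these arrays.

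The pyruvate dehydrogenase complex sits in the mitochondrial matrix and turns pyruvate into acetyl-CoA, the step that commits glucose carbon to oxidation or to fat synthesis. Pdha1 and Pdhb form the E1 component that removes carbon dioxide, Dlat is the E2 core that makes acetyl-CoA, and Pdhx is the E3-binding protein that anchors the last component, E3, to the core. The kinases phosphorylate the Pdha1 product and inactivate the complex, and the phosphatases remove the phosphate. Pdk4 is the kinase known for its induction in fasting and by fatty acids through PPAR receptors, and Pdk1 is a known target of the hypoxia-inducible factor HIF-1. Brown fat burns both fatty acids and glucose, and the kinases help set how much pyruvate the complex turns into acetyl-CoA.

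Values are log2 expression values, so a difference of 1 is a doubling, and "passed" means an adjusted p under 0.05 over all 23599 probe sets (limma, Benjamini-Hochberg). The array medians lay between 5.98 and 6.04. The Blnc1 transcript, named C730029A08Rik on the array, stood 24.8-fold higher in Blnc1 cells on its brighter probe set (limma adjusted p = 3.73e-05). The labels call these cells Blnc1 expressing and give no level. The dimmer probe set of the transcript was lower in Blnc1 cells, with a log2 fold change of -0.31, and did not pass (limma adjusted p = 0.315). General adipocyte genes had mean levels of 11.32 and 11.26 in Blnc1 arrays and 11.32 in both vector arrays, near the top of the scale, while the brown marker Ucp1 read 7.97 and 8.05 in Blnc1 arrays, against a dim 5.01 in both vector arrays. Among markers of other cells, none of the 3 macrophage and leukocyte genes, the 1 endothelial gene or the 6 fibroblast and preadipocyte genes passed. The macrophage and leukocyte genes averaged 4.40 and 4.41 in Blnc1 arrays and 4.28 and 4.37 in vector arrays, below the array medians. Of 4 skeletal muscle genes only Mb (myoglobin, also a brown fat gene) passed. Fibroblast and preadipocyte genes averaged 6.38 in both Blnc1 arrays, against 6.69 and 6.71 in vector arrays. The Y-linked Eif2s3y, Uty and Kdm5d fell, with log2 fold changes of -1.18, -1.02 and -0.87, and Xist rose by 0.55. All 18 hybridization controls were lower in Blnc1 arrays (median -0.27). These shifts separate the same groups as every result below, and their part in the results was not tested. In such bulk RNA, fewer cells of a type and less RNA per cell cannot be told apart.

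The 4 kinase promoters are shown because all 6 kinase probe sets, described next, were higher in both Blnc1 arrays. Each line is the 250 bases before a transcript start, from RefSeq (GRCm38.p6), read 5′ to 3′ on the gene's strand, with capitals marking ACGTG, the core of the hypoxia response element, on either strand.
Pdk4, chr6:5496279-5496528, minus strand: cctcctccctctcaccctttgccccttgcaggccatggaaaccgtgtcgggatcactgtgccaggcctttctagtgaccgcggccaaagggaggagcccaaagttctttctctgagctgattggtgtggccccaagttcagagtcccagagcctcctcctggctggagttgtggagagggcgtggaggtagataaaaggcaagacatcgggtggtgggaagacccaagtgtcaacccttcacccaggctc
Pdk1, chr2:71872974-71873223, plus strand: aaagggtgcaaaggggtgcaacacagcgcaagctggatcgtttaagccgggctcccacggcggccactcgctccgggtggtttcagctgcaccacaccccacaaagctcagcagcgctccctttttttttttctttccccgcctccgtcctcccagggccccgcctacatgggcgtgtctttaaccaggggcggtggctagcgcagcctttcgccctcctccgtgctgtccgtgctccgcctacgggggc
Pdk2, chr11:95041372-95041621, minus strand: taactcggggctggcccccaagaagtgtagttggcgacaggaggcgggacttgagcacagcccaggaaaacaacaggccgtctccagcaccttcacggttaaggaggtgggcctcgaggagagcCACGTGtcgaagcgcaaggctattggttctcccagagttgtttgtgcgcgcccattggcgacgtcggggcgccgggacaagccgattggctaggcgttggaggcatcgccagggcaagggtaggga
Pdk3, chrX:93832151-93832400, minus strand: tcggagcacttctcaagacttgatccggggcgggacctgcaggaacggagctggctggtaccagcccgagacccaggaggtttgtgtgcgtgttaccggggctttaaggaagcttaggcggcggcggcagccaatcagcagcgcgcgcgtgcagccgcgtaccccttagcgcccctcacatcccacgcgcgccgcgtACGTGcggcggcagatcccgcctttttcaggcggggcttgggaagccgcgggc

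Of these kinase windows, those of Pdk2 and Pdk3 held ACGTG and those of Pdk4 and Pdk1 did not. The core can also read GCGTG, which was not searched and occurs in the printed Pdk4 and Pdk1 windows. Whether these windows lack the core therefore cannot be read from ACGTG alone. The Pdk2 match begins 126 bases before the start and reads CACGTG, which holds ACGTG on both strands. The Pdk3 match begins 53 bases before the start. Of all 32851 promoter windows of this length, 16.6% held ACGTG on either strand, and of the 11 windows of 9 member genes 4 did, those of Pdk2, Pdk3, Pdp2 and Pdhb. Pdp1 had no entry in the promoter table. No member window held AGGTCA (a nuclear receptor element, 14.0% of all windows), a direct repeat of it with 1 base between (0.0335%), the forkhead element GTAAACA (3.17%) or the cAMP response element TGACGTCA (1.55%), each searched on both strands. The repeat contains AGGTCA. That these letters are missing from the windows says nothing about the factors. The second windows of Pdk1 and Pdk2, from other transcript starts, held none of the 5 motifs.

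Pdk4 was the member that rose. Its probe set (1417273_PM_at) read 9.50 and 9.62 in Blnc1 arrays, against 8.67 and 8.62 in vector arrays. Both Blnc1 arrays lay above both vector arrays, and the gap between the groups was several times the gap within either. The means were 9.56 ± 0.086 in Blnc1 cells and 8.65 ± 0.036 in vector cells (SD, n = 2 each), a 1.89-fold rise (log2 fold change 0.92 ± 0.084 SE, 95% interval 0.71 to 1.12, limma adjusted p = 0.0237). Pdk4 held rank 36 among the rises of 10926 genes and rank 21 by p-value, and 0.233% of all probe sets had a larger rise. Of the 17 member probe sets 1 passed, Pdk4, against 0.928% of all probe sets in either direction and 0.623% upward (147 probe sets higher and 72 lower, or 176 and 135 after median centring). Pdk4 has only this 1 probe set, and it did not pass without any 1 of the 4 arrays: the log2 fold change then lay between 0.86 and 0.98, and the limma adjusted p between 0.066 and 0.13. The count over all probe sets was then 38 and 36 without vector replicates 1 and 2, and 3 without either Blnc1 array.

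**Figure D1:**
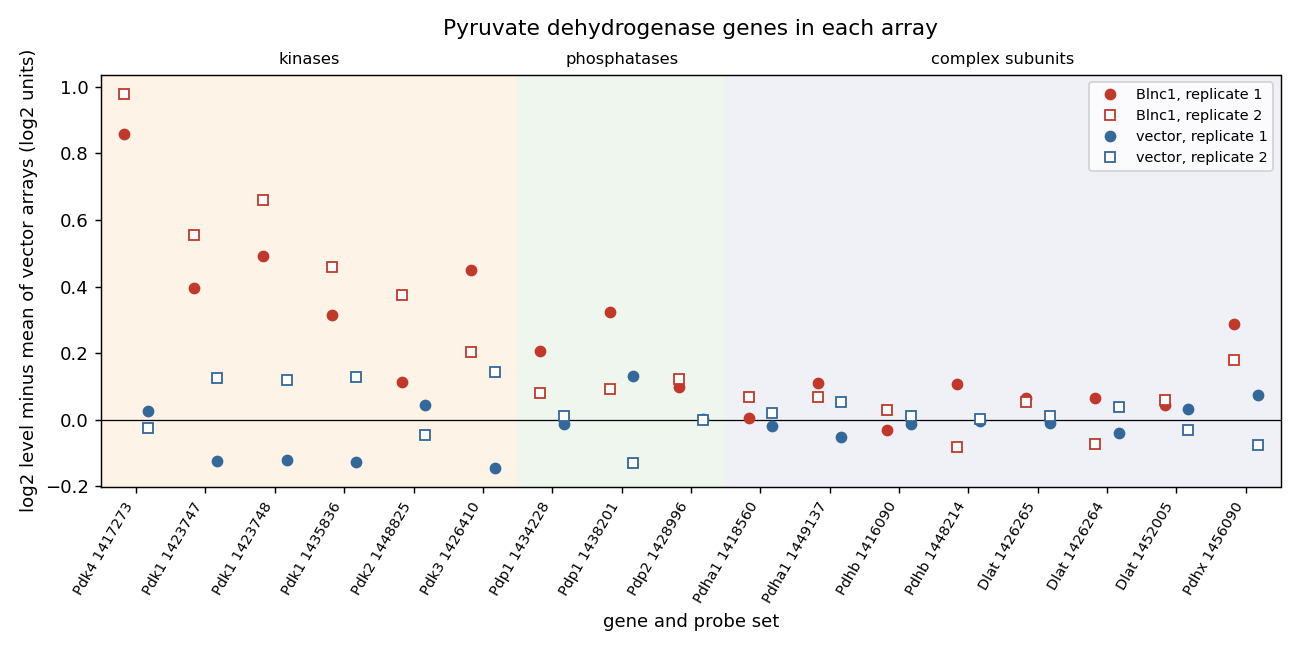
Log2 level of each member probe set in each array, minus the mean of the 2 vector arrays of that probe set (y axis, log2 units). Circles are replicate 1 and open squares replicate 2, red for Blnc1 and blue for vector. The Blnc1 arrays of Pdk4 sit near 0.9, those of Pdk1 between about 0.3 and 0.7, and most subunit probe sets lie close to 0 in all 4 arrays.

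Pdk1, the kinase that also phosphorylates a site on E1 that the other kinases do not, was higher in Blnc1 cells on all 3 of its probe sets, none of which passed. The brightest read 10.88 and 11.04 in Blnc1 arrays, against 10.36 and 10.61 in vector arrays. The next read 9.95 and 10.11 in Blnc1 arrays, against 9.33 and 9.57 in vector arrays. The dimmest read 8.72 and 8.87 in Blnc1 arrays, against 8.28 and 8.54 in vector arrays. On each probe set the groups did not overlap. The lower Blnc1 array lay above the higher vector array by 0.27, 0.37 and 0.19, more than either gap between replicates on the brightest and the next probe set, and less than the gap between vector replicates on the dimmest. The log2 fold changes were 0.48 ± 0.11, 0.58 ± 0.11 and 0.39 ± 0.11 (SE), with limma adjusted p of 0.115, 0.0824 and 0.16. All 3 passed with a prior variance that follows the level (limma adjusted p 0.00111 to 0.0186), a setting under which 2174 of all probe sets passed. With a single prior variance, as in the reported test, the 2 brighter ones passed when only probe sets at or above the median level were tested (limma adjusted p = 0.0494 and 0.0335), a filter under which 1021 of all probe sets passed. In both groups the array labelled replicate 2 was the higher one on all 3 probe sets, by 0.14 to 0.17 among Blnc1 arrays and by 0.24 to 0.26 among vector arrays.

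Pdk2, the most widely expressed of the kinases, and Pdk3, better known from testis and brain, were dim here. Pdk2 read 5.72 and 5.98 in Blnc1 arrays, against 5.66 and 5.57 in vector arrays. Pdk3 read 6.12 and 5.88 in Blnc1 arrays, against 5.53 and 5.82 in vector arrays. For both genes the Blnc1 arrays lay above the vector arrays, by margins smaller than the gap between replicates of at least 1 group. The log2 fold changes were 0.24 ± 0.11 for Pdk2 and 0.33 ± 0.13 for Pdk3 (SE), and neither passed (limma adjusted p = 0.304 and 0.265). Pdk2 lay at the 45.2 percentile of all mean levels and Pdk3 at the 47.2 percentile. Taken as a group, the 6 kinase probe sets had a median log2 fold change of 0.43, against 0.0056 over all probe sets. On all 6 both Blnc1 arrays lay above both vector arrays, against 26.4% of all probe sets. Of these 6 probe sets 3 read Pdk1 in the same arrays, so the median and the count weigh that gene most.

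The phosphatases, which reactivate the complex, did not pass on any probe set. Pdp1, the calcium-stimulated phosphatase, read 6.29 and 6.16 in Blnc1 arrays, against 6.07 and 6.09 in vector arrays, on its brighter probe set. Its dimmer probe set, at 4.51 and 4.28 in Blnc1 arrays and 4.32 and 4.06 in vector arrays, overlapped between the groups. Pdp2, the phosphatase known to respond to insulin, read 6.29 and 6.32 in Blnc1 arrays, against 6.19 in both vector arrays. The log2 fold changes were 0.14 ± 0.083 and 0.21 ± 0.13 for Pdp1 and 0.11 ± 0.075 for Pdp2 (SE, limma adjusted p 0.415 to 0.485). The upper bounds of the 95% intervals were 0.35, 0.52 and 0.29, and the rise measured for Pdk4 lay above all 3. The brighter and dimmer Pdp1 probe sets lay at the 52.5 and 11.8 percentile of all mean levels, and Pdp2 at the 54.1 percentile. RMA understates changes at low signal, and the intervals cover only the spread between arrays. They therefore do not bound the change of the transcripts.

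The subunits of the complex were bright and close to level between the groups. Pdhb, the E1 beta subunit, read 12.31 and 12.38 in Blnc1 arrays, against 12.33 and 12.36 in vector arrays, on its brighter probe set. Pdha1, the E1 alpha subunit that carries the phosphorylation sites, read 11.69 and 11.75 in Blnc1 arrays, against 11.66 and 11.70 in vector arrays, on its brighter probe set. Dlat, the E2 core, read 10.82 and 10.81 in Blnc1 arrays, against 10.74 and 10.76 in vector arrays, on its brightest probe set. The groups overlapped for Pdhb and Pdha1 on these probe sets and were apart for Dlat by less than 0.1. Across the 7 probe sets of these 3 genes the log2 fold changes ranged from -0.0031 to 0.089, and the smallest limma adjusted p was 0.61. Their 95% intervals together spanned -0.22 to 0.29, that is 0.86-fold to 1.22-fold. The 3 Dlat probe sets share a source sequence in the annotation. The 2 brightest stood at 0.061 ± 0.075 and -0.0031 ± 0.088 (SE), and the sign of the second turned after repeated quantile normalization. The dimmer Pdhb probe set, at 0.013 ± 0.093 (SE), turned sign after repeated quantile normalization and after median centring.

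Pdhx had the largest log2 fold change among the subunits. It read 9.54 and 9.43 in Blnc1 arrays, against 9.33 and 9.17 in vector arrays, with no overlap. The log2 fold change was 0.23 ± 0.092 (SE, 95% interval 0.0069 to 0.46), which did not pass (limma adjusted p = 0.252). Whether it differed from that of the other subunits was not tested.

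**Figure D2:**
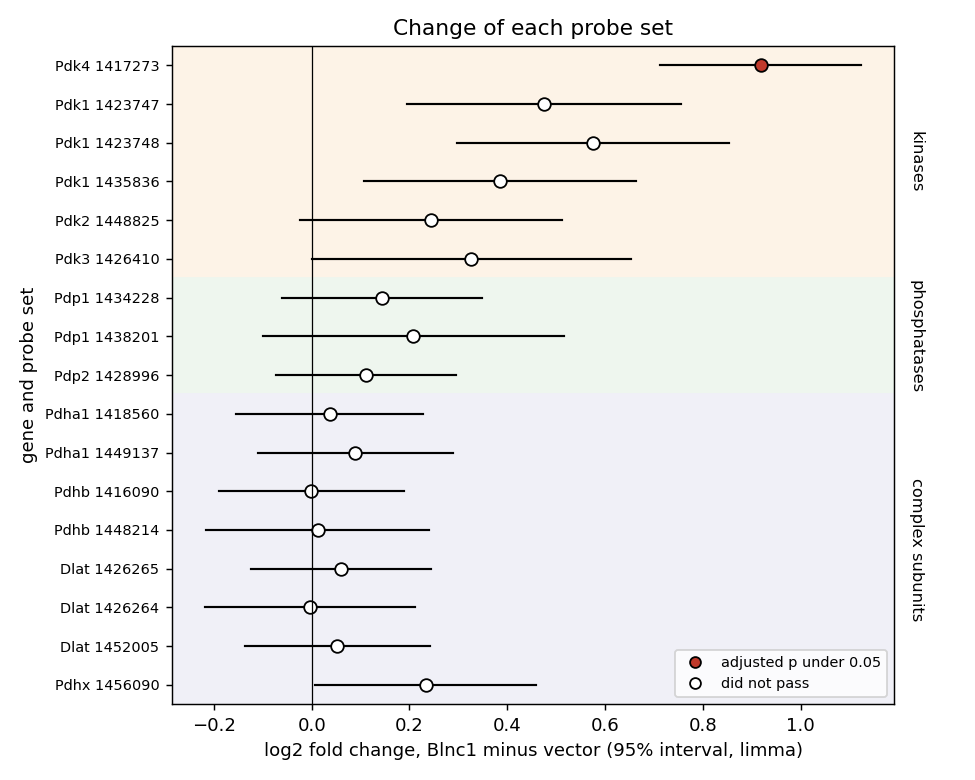
Log2 fold change of each member probe set, Blnc1 minus vector (x axis), with the 95% interval from limma as a horizontal line, grouped into kinases, phosphatases and complex subunits. A filled circle marks the probe set that passed, Pdk4 at 0.92, and the intervals of the Pdha1, Pdhb and Dlat probe sets all include 0.

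Across all 17 member probe sets 15 had a positive log2 fold change, against 51.3% of all probe sets, and the median was 0.14, against 0.0056 over all probe sets. Both Blnc1 arrays lay above both vector arrays on 12 of them and below on none, against 26.4% and 24.0% of all probe sets. An unadjusted p under 0.05 was reached by 6 of the 17, against 18.9% of all probe sets. Probe sets of 1 gene are not independent. With 1 probe set for each of the 10 genes, 9 were positive, against 51.6% of all named genes, and the median was 0.19. Both Blnc1 arrays lay above both vector arrays for 8 of the 10, against 28.3% of all named genes. An unadjusted limma p under 0.05 was reached by 4, against 2266 of 10926. Without Pdk4 and Pdk1 the median of the remaining 13 probe sets was 0.089. Both Blnc1 arrays lay above both vector arrays on 8 of these and below on none. The groups overlapped on the other 5, against 11715 of all 23599 probe sets.

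The genes around the complex were then examined. Of 16 listed partners 13 were measured, and Dld, the E3 component, was not among them. The 13 comprise lipoate and iron-sulphur cluster synthesis enzymes, the phosphatase regulatory subunit Pdpr and a thiamine transporter. None of the 13 passed and 12 had a positive log2 fold change (median 0.20, against 0.0073 over all named genes, of which 1.23% passed). Lipt1, which transfers lipoate to the E2 proteins, stood at 0.50 ± 0.082 (SE, limma adjusted p = 0.0624). Nfu1, a scaffold that delivers iron-sulphur clusters to lipoate synthase, stood at 0.38 ± 0.075 (SE, limma adjusted p = 0.0824). The cluster assembly factors Isca2 and Isca1 stood at 0.27 and 0.22. Lipoate synthase itself, Lias, stood at 0.063, and Pdpr at 0.20 on its brightest probe set.

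Genes that supply or consume pyruvate lay on both sides of 0. Of 10 measured none passed, 5 were positive and the median was 0.0036. Ldhb, the lactate dehydrogenase subunit of oxidative tissues, stood at 0.40 ± 0.075 (SE, limma adjusted p = 0.0775), and Slc16a1, a lactate and pyruvate transporter, at 0.29. Pcx, which carboxylates pyruvate to oxaloacetate, stood at -0.24 and the alanine aminotransferase Gpt2 at -0.31. The mitochondrial pyruvate carrier subunit Mpc1 stood at -0.030 ± 0.077 (SE), with 11.55 and 11.54 in Blnc1 arrays, against 11.61 and 11.54 in vector arrays.

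Of 9 measured genes that use or export acetyl-CoA none passed and the median was 0.0092. The mitochondrial acetyl-CoA synthetase Acss1 stood at 0.45 from a dim level of 4.08 and 4.14 in Blnc1 arrays, against 3.67 and 3.66 in vector arrays. Acacb, the mitochondria-bound carboxylase whose product malonyl-CoA restrains fatty acid import, stood at 0.41. The citrate carrier Slc25a1 and the cytosolic synthetase Acss2 stood at -0.15 and -0.11. The related complexes for branched-chain and other 2-oxoacids, with their own kinase and phosphatase, had a median of 0.21 over 8 measured genes, 6 of them positive and none past the test. Bckdha, the E1 alpha subunit of the branched-chain complex, stood at 0.30, Ogdh, the E1 of the 2-oxoglutarate complex, at 0.30, and Dbt, the branched-chain E2, at 0.25. Ppm1k, the branched-chain phosphatase, stood at 0.27, while the branched-chain kinase Bckdk stood at -0.068 ± 0.089 (SE), with groups that overlapped.

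Among 18 measured transcription regulators known to act on Pdk genes 1 rose, against 0.860% of all named genes. It was Ppara, the fatty acid sensing receptor known to induce Pdk4 (log2 fold change 0.73 ± 0.095 SE, limma adjusted p = 0.0434). Its brightest probe set read 8.14 and 8.09 in Blnc1 arrays, against 7.48 and 7.29 in vector arrays, and both further probe sets passed too, at 0.87 and 1.01. Thrb, a thyroid hormone receptor, stood at -0.49, the nuclear receptor Nr4a1 at -0.73 and the oestrogen-related receptor Esrrg at 0.40, and none of these passed (limma adjusted p 0.0736 to 0.0782). Thrb was dim, at 3.92 in both Blnc1 arrays, against 4.33 and 4.49 in vector arrays. Without any 1 array none of the 3 Ppara probe sets passed (log2 fold change 0.63 to 1.09, limma adjusted p 0.0503 to 0.163). Hif1a, the oxygen-regulated subunit of HIF-1, stood at -0.10 ± 0.076 (SE). The median of the regulators was 0.033. Both Blnc1 arrays lay above both vector arrays for 7 of them and below for 7, against 3095 and 2716 of all 10926 named genes.

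Of 22 measured PPAR target genes of fatty acid metabolism 3 rose and none fell, against 0.860% of all named genes that rose, and the median was 0.17. Both Blnc1 arrays lay above both vector arrays for 14 of the 22 and below for 4, against 3095 and 2716 of all 10926 named genes. Cpt1b, the muscle-type gatekeeper of fatty acid entry to mitochondria, read 8.76 and 8.90 in Blnc1 arrays, against 7.45 and 7.47 in vector arrays (log2 fold change 1.37 ± 0.085 SE, limma adjusted p = 0.0120). Angptl4, a secreted lipase inhibitor, read 9.14 and 9.15 in Blnc1 arrays, against 8.43 and 8.24 in vector arrays (0.81 ± 0.092 SE, limma adjusted p = 0.0348). Plin5, which coats lipid droplets in tissues that burn fat, rose by 0.77 ± 0.095 (SE, limma adjusted p = 0.0388). Leaving out 1 array at a time, Cpt1b passed without either vector array (limma adjusted p 0.0352 and 0.0309) but not without Blnc1 replicate 1 or 2 (0.0862 and 0.103), and Angptl4 and Plin5 passed in none of these fits (0.0638 to 0.159). Cpt1a, the liver-type form, stood at -0.54 ± 0.079 (SE, limma adjusted p = 0.0526).

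Hypoxia-responsive genes, the group that Pdk1 is known to belong to, were mostly higher in Blnc1 cells without any passing. The log2 fold change was positive for 22 of 24 measured genes (median 0.28), and on 18 both Blnc1 arrays lay above both vector arrays, against 28.3% of all named genes. Egln3, an oxygen-sensing hydroxylase, read 9.03 and 9.41 in Blnc1 arrays, against 7.69 and 8.18 in vector arrays, on its brighter probe set (log2 fold change 1.28 ± 0.20 SE, limma adjusted p = 0.0573). Its dimmer probe set read 7.14 and 8.02 in Blnc1 arrays, against 6.49 and 7.04 in vector arrays (0.82 ± 0.31 SE, limma adjusted p = 0.233). The glycolytic enzyme Pfkp stood at 0.63, the histone demethylase Kdm3a at 0.55 and Ndrg1 at 1.18, with limma adjusted p from 0.065 to 0.0866. Ndrg1 was dim, at 5.18 and 5.90 in Blnc1 arrays, against 4.21 and 4.52 in vector arrays. As for Pdk1, the array labelled replicate 2 was the higher one in both groups for 21 of the 24 genes, against 21.6% of all named genes. The median gap between replicates was 0.14 among Blnc1 arrays and 0.20 among vector arrays, and the part of this spread in the group difference was not tested.

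**Figure D3:**
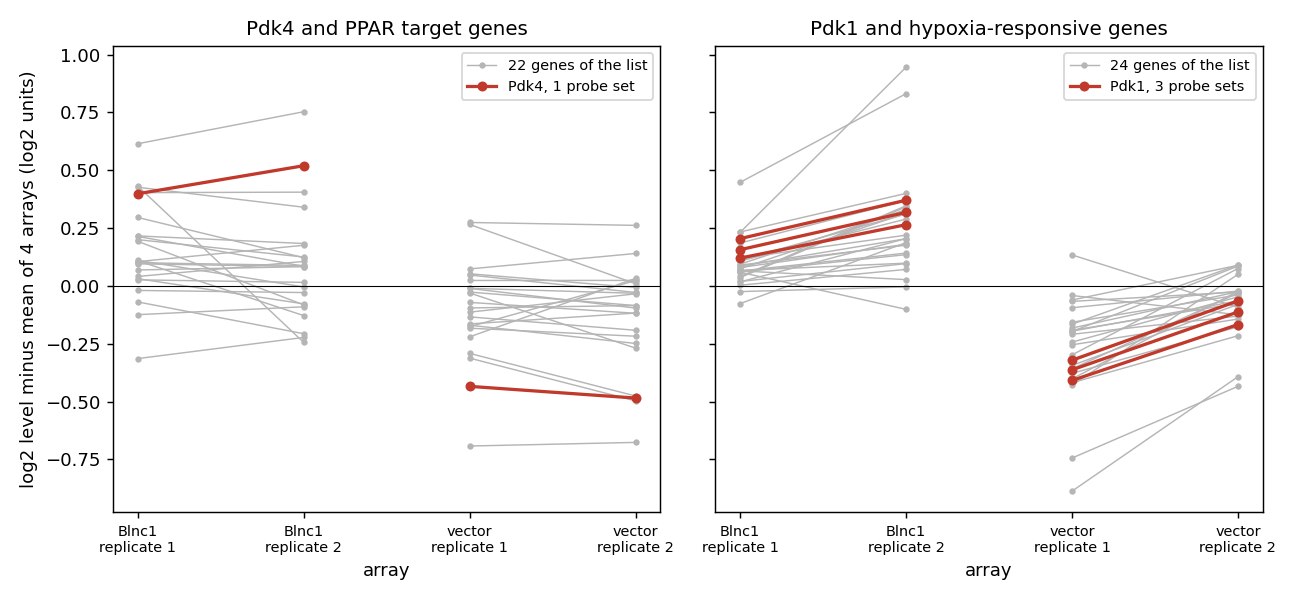
Log2 level minus the mean over the 4 arrays (y axis, log2 units) in each array (x axis), for Pdk4 with 22 PPAR target genes (left) and for the 3 Pdk1 probe sets with 24 hypoxia-responsive genes (right). Red lines are the kinases, grey lines the listed genes, and lines join the replicates of a group. Pdk4 is high in both Blnc1 arrays, whereas Pdk1 and most hypoxia-responsive genes also differ between the replicates of each group.

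The genes whose values over the 4 arrays were most like those of Pdk4 were Slc40a1, Ampd3, Oplah, Atg101 and Tmigd1, by the Euclidean distance between the array values after each gene's mean was subtracted. The distances were 0.12 to 0.15 log2 units among 8356 genes with a mean level of at least 5, and the log2 fold changes of these genes ran from 0.81 to 1.06. Slc40a1, which encodes the iron exporter ferroportin, was the nearest, with 6.86 and 6.88 in Blnc1 arrays, against 5.85 and 5.91 in vector arrays. The nearest to Pdk1 were Gtpbp2, Mxi1, Ablim1, Mif and 1700096K18Rik, at distances of 0.034 to 0.081. Of these Mxi1, a MAX-binding repressor, is also among the hypoxia-responsive genes. With only 4 arrays such likeness describes these libraries.

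**Figure D4:**
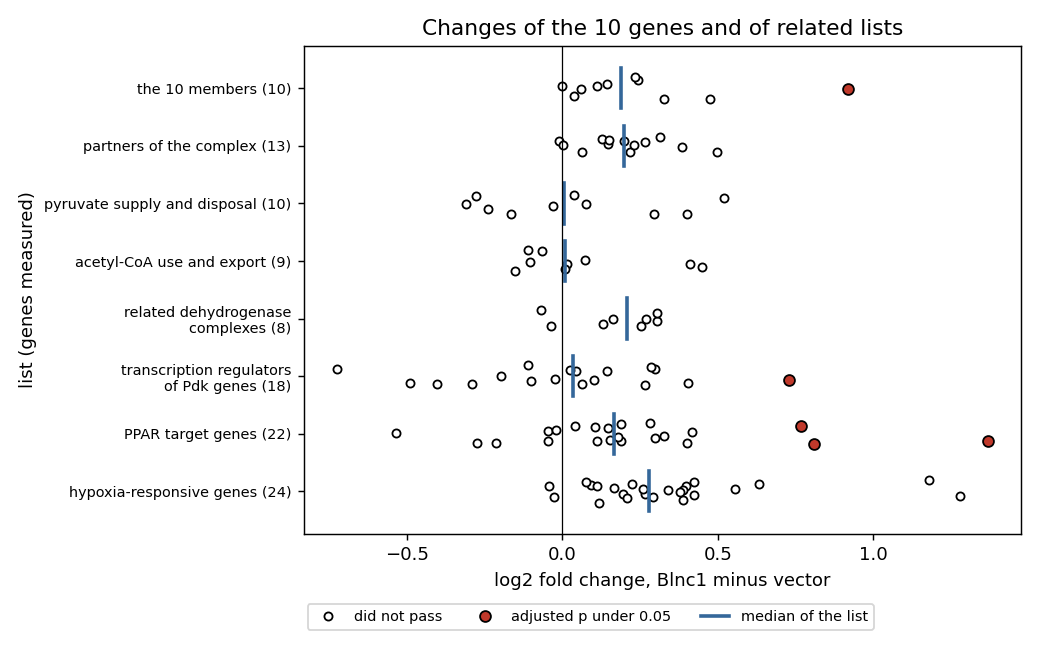
Log2 fold change, Blnc1 minus vector (x axis), of each gene on its brightest probe set, for the 10 pyruvate dehydrogenase genes and 7 related lists (y axis, number of genes measured in parentheses). Filled circles passed, open circles did not, and blue bars are medians. Filled circles appear for Pdk4, Ppara and the PPAR target genes Cpt1b, Angptl4 and Plin5.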

How the data were processed

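Biotin-labelled RNA of 4 samples was run on Affymetrix mouse PM Strip arrays, per the labels' protocols. The table the authors deposited holds 1 log2 value per probe set and array, between 2.7 and 13.3. Per the submitters' processing notes, the authors used limma, affy and RMA, with versions not given there. RMA corrects background, normalizes by quantiles and summarises probes, and it understates changes of probe sets with low signal. Raw intensities, slides and scan dates were not used here, and no genome was given. All 4 columns were used.

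The 35 control probe sets were left out. Of the other 23599 probe sets 16692 had 1 gene symbol in the platform annotation, 372 several and 6535 none, and all 17 member probe sets matched the reference symbol by Entrez ID. Outside the members, the probe set with the highest mean over the arrays stood for its gene. Blnc1 arrays were compared with vector arrays with limma 3.58.1 in R 4.3.3 (lmFit, eBayes, two-sided, no covariate, no filter), with Benjamini-Hochberg adjustment over all 23599 probe sets and a threshold of 0.05. How often the test errs on these arrays was not tested. With 2 arrays per group, the number of arrays limits the precision. Named genes were all members, the 4 lowest p-values of each list and the 5 genes nearest to Pdk4 and to Pdk1; Lias, Pdpr, Mpc1, Bckdk and Hif1a were named after their values were seen. The members and lists were chosen with earlier results of these data known. Promoters came from RefSeq (GRCm38.p6), and protein sequences were not analysed here. The alternatives varied the prior, scaling, filters, probe sets, test, threshold, replicate block and arrays.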

Additional observations from a re-analysis of the deposited data

How the results depend on the processing

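Of the 242 recomputed log2 fold changes of member probe sets 233 kept their sign. Changes of the prior, filter, test or block leave a log2 fold change as it was. Only rescaling, averaging probe sets or leaving out an array could turn a sign. The 9 that did not were all near 0. The brighter Pdhb probe set (-6.9e-04) turned to 0.00599 when the probe sets of each gene were averaged, and to 0.011 without vector replicate 2 and 0.0297 without Blnc1 replicate 1 (-0.0311 to 0.0297 without 1 array). The dimmer Pdhb probe set (0.013) turned to -5.1e-04 after repeated quantile normalization, -0.0033 after median centring and -0.083 without Blnc1 replicate 1 (-0.083 to 0.108 without 1 array). The Dlat probe set at -0.0031 turned to 0.0017 after repeated quantile normalization, 0.035 without vector replicate 2 and 0.066 without Blnc1 replicate 2 (-0.0724 to 0.066 without 1 array).

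Pdk4 passed under 8 of 15 alternatives and kept its sign in all 15, though most of these could not change its log2 fold change. It did not pass in a test against a 1.2-fold change (log2 fold change 0.92, limma adjusted p = 0.0753), without moderation of variances (0.92, adjusted p = 0.278 by the unmoderated fit across all probe sets) or without any 1 array (0.86 to 0.98). With the replicate number as a block it stood at 0.92 (limma adjusted p = 0.0802), and 30 probe sets passed, none of them a member. The labels do not say that numbers mark a shared batch, and the replicate differences of the 2 groups correlated at r = 0.089 over probe sets, so pairing was not established over the whole table. Replicate 2 was still the higher array in both groups on all 3 Pdk1 probe sets and for 21 of 24 hypoxia-responsive genes, and whether the numbers mark a shared source for these was not tested.

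The 219 probe sets past the threshold became 2174 with a trended prior, 453 and 1021 with filters on dim probe sets (a mean of at least 5, or of at least the median), 467 genes when probe sets were averaged per gene, 22 against a 1.2-fold change, 0 without moderation (4456 at an unadjusted p under 0.05 in limma), 3 at a threshold of 0.01, 958 at 0.10, and 3 to 38 without 1 array. The member count of 1 became 5 with the trended prior (Pdk4, the 3 Pdk1 probe sets and Pdhx), 3 with the stricter filter on dim probe sets (Pdk4 and the 2 brighter Pdk1 probe sets, with fewer probe sets tested), 2 at a threshold of 0.10, and 0 against a 1.2-fold change, without moderation, at 0.01, with the block and without any 1 array. The cause of these differences was not tested. Signal over background was not analysed here.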

Other observations

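Pyruvate carboxylase, the enzyme that competes with pyruvate dehydrogenase for mitochondrial pyruvate, is also read by control probe sets of the array that were left out of the comparison. The one at the 3' end read 11.22 in both Blnc1 arrays, against 11.43 and 11.53 in vector arrays, a difference of -0.26 (Blnc1 minus vector), beside -0.24 for the Pcx probe set among the genes. Its other 3 control probe sets, nearer the 5' end, were dim and differed by -0.11 to 0.16.

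The 4 probe sets of Pdpr, the regulatory subunit of the phosphatase, were all positive, with log2 fold changes of 0.099 to 0.50, and none passed. The largest came from the dimmest probe set.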
